A study of Mus musculus with 8 samples.

Results

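The broad SOX9 domains were stretches of at least 5 kb over which SOX9 CUT&Tag coverage of the mouse spinal cord stayed high without a break. Chromosomes 1 to 19 of the mm10 genome were divided into 2462755 tiles of 1 kb, and the coverage of each tile was divided by the mean tile of its library, which gives the ratio used throughout. A domain was a run of 5 or more consecutive tiles that all reached a ratio of 3 as the mean of the 4 SOX9 libraries. Of 69986 runs of any width, 5434 (7.76%) were domains. They held 51650 kb, which was 2.1% of all tiles and 34.5% of the 149500 tiles at the ratio. The domains were chosen by these measured ratios, so their heights and widths are a description and carry no test.

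The nuclei came from the spinal cord of adult WT mice that were either uninjured or had received a mid-thoracic contusion 1 day earlier (1 d.p.i.). Each condition had 1 male (M) and 1 female (F) SOX9 library, so every group had n = 2 and its replicates differed in sex. Part of the nuclei of each sample went through the protocol without the SOX9 antibody and gave 4 control libraries. The labels give no number of animals behind a library, and p-values here do not reach beyond these samples. The labels name a sort on the DNA dye 7AAD alone, whereas the methods refer to a sorting step that also had antibodies to NEUN or SOX10, so whether nuclei were chosen by cell type is unsure. Fewer cells of a type and less SOX9 per cell cannot be told apart.

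SOX9 is a transcription factor with an HMG box that binds the minor groove of DNA and bends it. In the adult spinal cord it is known as an astrocyte and ependymal cell factor, and in development it precedes the switch to gliogenesis and drives cartilage genes. CUT&Tag directs a transposase to an antibody on chromatin, and the inserted adapters mark where the antibody sat. The transposase can also insert into open chromatin, which is why libraries without the primary antibody are made alongside.

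The SOX9 libraries held 1894639 (uninjured M), 7235739 (uninjured F), 2532045 (1 d.p.i. M) and 2389905 (1 d.p.i. F) fragments, as far as steps in the coverage show them. The 4 control libraries held 10925 to 53270 fragments. Controls shared fragments with the SOX9 libraries. Of control fragments in domains that touched no other fragment of their library, 87.3% to 94.1% had both ends at the ends of stretches of a SOX9 library, against 0.307% to 0.536% after a shift by 50 bp. The matches fell on all 4 SOX9 libraries, for example 54% on uninjured F and 13.6% on uninjured M for the uninjured F control. Control values below are therefore not an independent background.

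The sequences that carry the main findings are the 300-bp windows of highest SOX9 coverage in 6 domains (GRCm38, plus strand, from RefSeq). The first 4 belong to the domains with the largest rises at 1 d.p.i. The fifth belongs to one of the largest falls, and the last to the widest domain. Capitals mark letters of 4 short motifs on either strand: the SOX core (ACAAAG or ACAATG), AP-1 (TGANTCA), the NFI letters (TTGGCA) and a glucocorticoid receptor palindrome (GNACA and TGTNC with 3 bases between). The palindrome was added after the values had been seen. In order, the windows are chr7:17058265-17058564 (inside Hif3a and in an exon of the noncoding gene 4833404L02Rik), chr10:22000567-22000866 (between genes, 5806 bp from the Sgk1 start), chr14:70336412-70336711 (intron of Slc39a14, 2363 bp from a start), chr2:167777495-167777794 (exon of the noncoding gene Gm14321), chr19:4819226-4819525 (between genes, 7741 bp from the Rbm14 start) and chr6:114552055-114552354 (no annotated gene).
Hif3a: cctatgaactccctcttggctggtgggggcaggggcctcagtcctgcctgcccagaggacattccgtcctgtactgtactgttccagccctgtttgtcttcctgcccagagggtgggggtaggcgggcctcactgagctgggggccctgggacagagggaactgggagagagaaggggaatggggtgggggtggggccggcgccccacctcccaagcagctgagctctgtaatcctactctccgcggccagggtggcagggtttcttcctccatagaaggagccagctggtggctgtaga
Sgk1: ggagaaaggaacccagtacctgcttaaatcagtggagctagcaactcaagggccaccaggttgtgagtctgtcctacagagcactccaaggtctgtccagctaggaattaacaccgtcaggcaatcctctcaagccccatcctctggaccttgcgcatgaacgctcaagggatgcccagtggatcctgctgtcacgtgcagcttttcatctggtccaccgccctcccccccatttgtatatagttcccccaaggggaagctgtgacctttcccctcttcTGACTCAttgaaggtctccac
Slc39a14: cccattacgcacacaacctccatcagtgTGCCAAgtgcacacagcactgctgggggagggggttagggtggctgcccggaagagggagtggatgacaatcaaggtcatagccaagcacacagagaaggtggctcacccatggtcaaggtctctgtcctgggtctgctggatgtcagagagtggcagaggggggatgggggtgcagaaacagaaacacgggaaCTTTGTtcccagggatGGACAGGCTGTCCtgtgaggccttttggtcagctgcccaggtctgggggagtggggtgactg
Gm14321: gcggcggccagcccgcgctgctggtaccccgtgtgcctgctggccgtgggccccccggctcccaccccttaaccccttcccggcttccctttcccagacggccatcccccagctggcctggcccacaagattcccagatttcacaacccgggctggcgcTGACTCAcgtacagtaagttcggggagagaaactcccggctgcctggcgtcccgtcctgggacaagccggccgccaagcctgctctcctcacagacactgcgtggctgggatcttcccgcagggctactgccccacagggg
Rbm14: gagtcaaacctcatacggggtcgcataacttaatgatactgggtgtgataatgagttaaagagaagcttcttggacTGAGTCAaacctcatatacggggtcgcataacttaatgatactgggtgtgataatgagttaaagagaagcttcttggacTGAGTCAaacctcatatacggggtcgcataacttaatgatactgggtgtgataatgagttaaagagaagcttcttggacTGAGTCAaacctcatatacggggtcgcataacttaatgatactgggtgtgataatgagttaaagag
Widest domain: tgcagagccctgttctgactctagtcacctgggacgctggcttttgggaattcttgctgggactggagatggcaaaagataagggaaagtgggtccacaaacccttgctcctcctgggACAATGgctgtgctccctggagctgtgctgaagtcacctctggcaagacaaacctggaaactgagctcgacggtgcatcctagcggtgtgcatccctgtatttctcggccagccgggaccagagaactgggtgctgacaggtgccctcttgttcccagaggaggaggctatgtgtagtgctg

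These windows held few of the motifs. The Slc39a14 window had 1 SOX core on the minus strand, 1 match to the NFI letters and 1 palindrome. The Sgk1 and Gm14321 windows each had 1 AP-1 match, and the Hif3a window had no match to any of the 4. In the Rbm14 window the AP-1 letters occurred 3 times, once in each copy of a repeated stretch. Over the highest window of all 5434 domains, 29.4% held a SOX core, against 39.3% of the 2395810 windows of the same length that open a tile. AP-1 letters were in 8.61% against 8.91%, the NFI letters in 15.6% against 14.5% and the palindrome in 1.03% (56 windows) against 0.49%. The domain windows had a GC content of 58.2% and all windows 41.9%, and the part of base composition in these shares was not tested.

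Most domains were a few kilobases wide, and a small number were very wide. The median width was 7 kb (quartiles 5 and 10 kb, mean 9.5 ± 7.75 kb, SD over 5434 domains). 1494 domains (27.5%) had the least width of 5 kb, 1567 reached 10 kb, 396 (7.29%) reached 20 kb and 31 reached 50 kb. The 396 domains of 20 kb or more held 12190 kb. Among the narrower runs, 42117 were 1 tile and 22435 were 2 to 4 tiles wide. Width and height went together loosely over domains (Pearson r = 0.301 of log width with log ratio, n = 5434 regions of the same 4 libraries). The median ratio was 5.28 in domains of 5 kb and 9.79 in those of 50 kb or more.

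**Figure D1:**
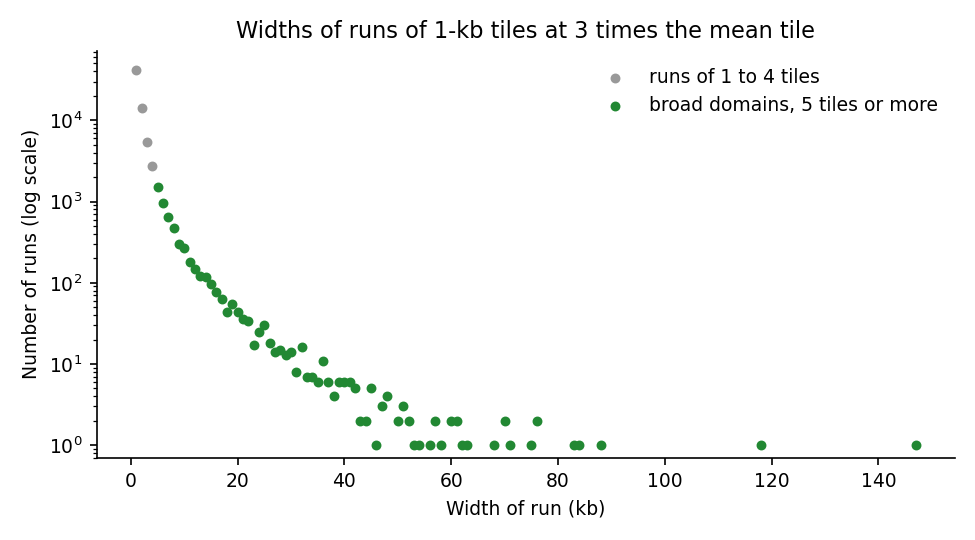
Number of runs (log scale) at each width in kb, for runs of 1-kb tiles at 3 times the library mean tile. Grey points are the runs of 1 to 4 tiles and green points the 5434 broad domains, which reach from 5 to 147 kb.

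Tiles within a domain differed in height. The lowest tile of a domain had a median ratio of 3.31 and the highest tile a median of 10.6. The highest tile was 1.75 times the domain's mean at the median (quartiles 1.43 and 2.38). Domains also lay near each other: 1579 of 5415 gaps to the next domain (29.2%) were 5 kb or less, and 867 were a single tile. The densest chain was chr10:81229001-81436000, where 7 domains held 196 of 207 kb and the start sites of 19 coding genes, among them Nfic. Chromosome 11 had the largest share of its length in domains (4.56%) and chromosome 13 the smallest (0.652%).

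Domains followed genes, and wide domains followed gene starts. A protein-coding start site lay in 2643 domains (48.6%, median width 8 kb). Another 2268 (41.7%, median 6 kb) touched a coding gene without its start, 214 (3.94%) touched only noncoding genes or pseudogenes, and 309 (5.69%) touched no gene of the GENCODE annotation, on which these counts rest. The share with a coding start was 37.9% at 5 kb, 43.4% at 6 to 9 kb, 62% at 10 to 19 kb, 80.5% at 20 to 49 kb and 83.9% at 50 kb or more. The widest class covered 2.94 coding starts per domain on average and the 5-kb class 0.418. A wider window covers more starts by its length alone, and that part was not tested. Of the domains with a coding start, 2060 held 1 gene and 583 held 2 or more, up to 9.

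From the side of the genes, 3219 of 20698 autosomal coding genes (15.6%) had a start site in a domain, 6515 (31.5%) in a run of 2 to 4 tiles and 2800 (13.5%) in a run of 1 tile. Any part of the body of 4434 genes (21.4%) lay in a domain. Short genes were covered more often: 19.4% of genes under 10 kb started in a domain, 14.9% of genes of 10 to 50 kb and 10.9% of longer genes. The genes with a start in a domain had a median length of 12295 bp, against 17603 bp for all coding genes. Domains covered 1066 of them (33.1%) from end to end, 935 of which were under 10 kb long.

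In domains with a coding start, the summit was often that start itself. In 1583 of the 2643 domains with a coding start (59.9%) the highest tile held that start, while tiles with a start were 16.2% of their tiles. Over all 5434 domains the share was 29.1%. For 2878 genes whose 5′ end lay in a domain tile with a ratio under 60, the mean ratio at the 5′ end was 10.9 (uninjured M), 21.8 (uninjured F), 16 (1 d.p.i. M) and 12.6 (1 d.p.i. F). At 5 kb into the gene it was 4.46, 6.18, 5.25 and 4.64 in the same order, and at 20 kb upstream 3.29, 4.5, 3.81 and 3.44. Over all 20698 coding genes the value at the 5′ end was 5.18 to 10.2 and at 5 kb into the gene 1.76 to 2.07. The uninjured F library was the highest at each of these positions. The controls had 14.8 to 17.8 at the 5′ ends in domains, within the range of the SOX9 libraries.

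**Figure D2:**
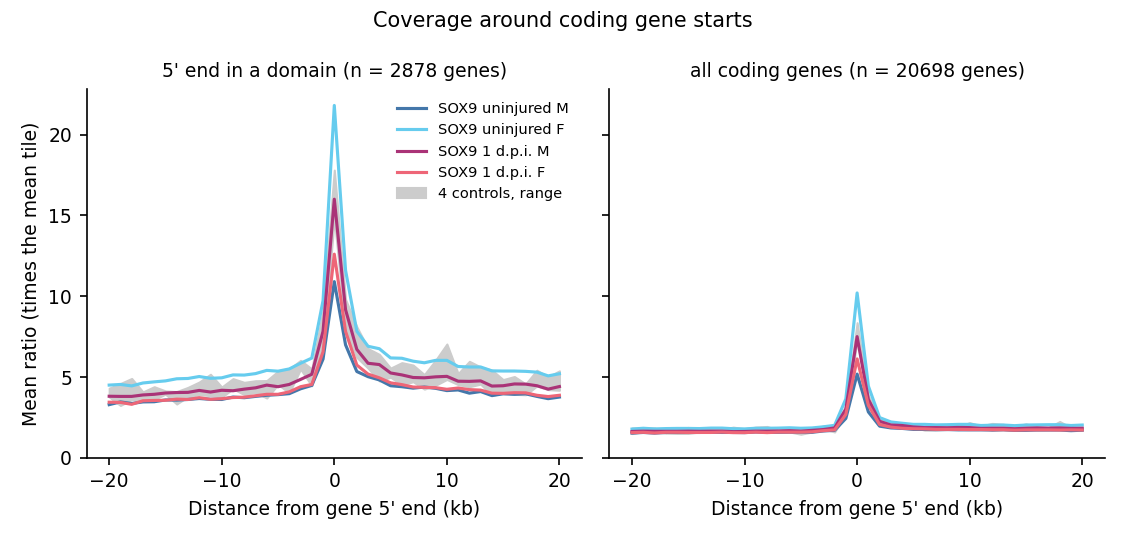
Mean ratio (times the library mean tile) against distance from the gene 5′ end in kb, for genes whose 5′ end lay in a domain (left) and for all coding genes (right). Lines are the 4 SOX9 libraries and the grey band is the range of the 4 controls, which overlap them at the peak.

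The sequence of the domains was rich in GC and exons and poor in repeats. GC content was 52.2% in domain tiles and 41.9% in all tiles, and CpG density was 19.4 against 8.51 per kb. Soft-masked repeats made up 17.7% of the bases against 33.5%. Exons lay in 45.5% of domain tiles against 13.3%, and coding starts in 9.29% against 1.33%. Runs of 2 to 4 tiles had more starts per tile than domains (14.4% of tiles) and more CpG (22.7 per kb), with fewer exon tiles (40.5%). The SOX core occurred 1.22 times per kb in domains and 1.71 times over all tiles, AP-1 letters 0.271 against 0.319 times, and the NFI letters 0.561 against 0.54 times. The lower density of the AT-rich SOX core stood beside the higher GC content of the domains, whose part was not tested.

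The libraries agreed on where domains lay on average, and seldom on every tile. In 4830 domains (88.9%) the mean ratio reached 3 in all 4 SOX9 libraries, in 550 in 3 libraries, in 53 in 2 and in 1 domain in a single library. The rule used the mean of these same libraries, so these counts are partly built in. Every tile reached 3 in all 4 libraries in only 40 domains (0.736%), and in 1739 (32%) no library reached it in every tile. The median ratio over domains was 5.29 in uninjured M, 6.92 in uninjured F, 6.29 in 1 d.p.i. M and 5.55 in 1 d.p.i. F. Uninjured F was the highest library in 3007 domains (55.3%), and uninjured M the lowest in 2591 (47.7%). The deepest library was thus the highest more often than any other. After thinning each SOX9 library to the 1894639 fragments of the shallowest, the rule gave 5450 domains.

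**Figure D3:**
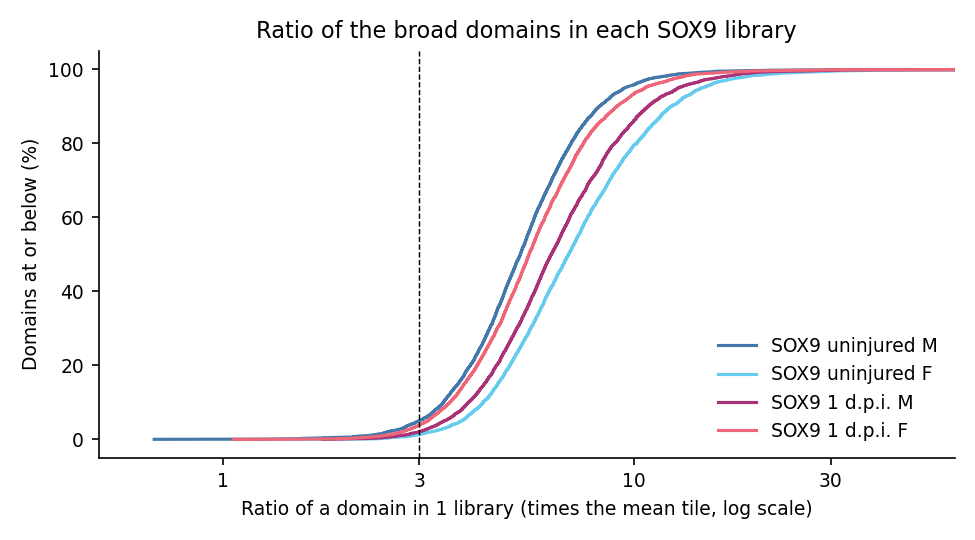
Cumulative percent of the 5434 broad domains at or below a ratio (times the library mean tile, log scale, axis ending at 60) in each SOX9 library, with the ratio of 3 dashed. The medians run from 5.29 in uninjured M to 6.92 in uninjured F, and the curves of the conditions interleave.

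Each library was also set against domains chosen without it. When the other 3 libraries chose, the left-out library reached 3 in 68.1% of domain tiles (uninjured M), 87.9% (uninjured F), 77.7% (1 d.p.i. M) and 72.4% (1 d.p.i. F). Over all tiles these libraries reached 3 in 9.27%, 6.96%, 8.32% and 8.4%. The mean over a domain reached 3 in 87.1%, 96.7%, 93.9% and 90.1% of the domains. A library taken alone gave 3798, 6301, 5294 and 4396 domains, and 77.4%, 65.9%, 72.7% and 75.7% of these overlapped a domain of the 4 libraries. Correlations of log ratios between libraries over the 5434 domains were 0.614 to 0.774 (Pearson r, regions that share mappability and base composition), and over all 69986 runs 0.0344 to 0.47. Those domains and runs were chosen on the mean of the 4 libraries, the compared ones included. The overlaps and correlations are therefore not independent of that choice.

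The share of coverage inside domains in the controls lay within the range of the SOX9 libraries. Because the controls shared fragments with the SOX9 libraries, this comparison cannot separate the antibody's signal from background. Domains took 13.8% of the coverage in uninjured M, 18.6% in uninjured F, 17.2% in 1 d.p.i. M and 14.7% in 1 d.p.i. F. The groups overlapped (16.2% ± 3.39 uninjured and 16% ± 1.76 at 1 d.p.i., SD, n = 2; exact two-sided permutation p = 1, where the smallest p that 2 against 2 can give is 0.333). The share rose by 3.39 percentage points in M and fell by 3.89 in F. In domains chosen by the other 3 libraries it rose by 2.43 in M and fell by 1.77 in F, with 16.1% in uninjured F. The controls had 16.1%, 17.2%, 17.7% and 17.1% in the same order of conditions and sexes (exact p = 0.667). At their depth, 41% to 75.7% of the domains held no control fragment at all.

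The widest domains were of different kinds. The widest, chr6:114491001-114638000 (147 kb), touched no annotated gene and lay 5097 bp from an Atg7 start, with 75.5% of its bases soft-masked and 80% of its sampled 32-base words found more than once in the genome. Its ratios were 18 and 10.7 in uninjured M and F and 14.7 and 15.8 at 1 d.p.i. A domain of 84 kb on chromosome 10 covered the starts of Polr2e, Gpx4, an enzyme that reduces lipid peroxides, and Sbno2, with 5.11 and 7.88 uninjured and 8.13 and 8.11 at 1 d.p.i. A gap of 2 tiles separated it from one of 75 kb over 7 coding genes, among them the kinase Stk11 and the cold-shock RNA-binding protein Cirbp. On chromosome 8, one domain of 76 kb held 6 coding starts including the synaptic vesicle GTPase Rab3a, and another of 76 kb lay inside Gse1, 74545 bp from its nearest coding start. In these gene-linked domains the uninjured and 1 d.p.i. ratios overlapped, except over Polr2e, Gpx4 and Sbno2, where both 1 d.p.i. libraries were above both uninjured ones.

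Repeats, ribosomal RNA genes or mitochondria-like sequence lay under the other wide domains and the highest ones. On chr8:123537001-123625000 an 88-kb domain lay over 48 rRNA genes in RefSeq, 41 of them named n-R5s for the 5S ribosomal RNA, in a unit that matched itself best at a shift of 1691 bp. On chr7:59724001-59807000 an 83-kb domain inside Snhg14 held 33 snoRNA genes in a unit of 2513 bp. The 88-kb domain had 15.4 and 13.3 uninjured and 12.4 and 11.5 at 1 d.p.i. (log2 change -0.25, SE 0.51), and the 83-kb one 11 and 9.64, then 6.83 and 7.59 (-0.49, SE 0.49). Their groups did not overlap, and limma called neither. The highest ratio, 1966, was on chr17:39843001-39849000, over the 18S ribosomal RNA gene Rn18s-rs5. There the libraries had 1525 and 1167 uninjured and 2989 and 2184 at 1 d.p.i., and the controls 2120 to 11094. On chr9:3000001-3039000 (mean 167) the sequence repeated at 234 bp, with 70.7% of bases matching, and on chr1:24611001-24617000 (mean 143) 76.4% of 32-base words also occurred in the mitochondrial genome. A domain on chromosome 14 over Gm21738 had a mean of 240, one over Gm3318 on chromosome 10 had 91.8, and one on chromosome 6 with Rn4.5s, a gene in RefSeq where GENCODE had none, had 77. These 6 domains, from Rn18s-rs5 on, were among 7 with a mean above 60. Their fitted standard errors (1.44 to 160.92 on the log2 scale) came from a trend of spread with height over all runs. The fit therefore gives no usable change for them. The SD of log2 ratios over the SOX9 libraries was smaller, 0.09 in the domain with Rn4.5s and 0.59 at Rn18s-rs5.

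Multicopy sequence was not the rule among domains. In 121 domains (2.23%) at least 50% of the 20 sampled 32-base words occurred more than once in the genome, against 11.7% of sampled tiles. Leaving out the 7 highest, multicopy domains had mean ratios of 10.3 and 8.22 in uninjured M and F and 8.6 and 8.58 at 1 d.p.i., and control ratios of 4.34 to 6.55. Single-copy domains had 5.98 and 8.52 uninjured and 7.56 and 6.44 at 1 d.p.i., and control ratios of 7.01 to 7.73. The SOX9 libraries lay above the controls in the multicopy domains and around them in the single-copy ones.

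Some domains only just met the rule. The domains with the lowest minimum tile (Tef, Nab2 with Nemp1, and Eci1) had a lowest tile of 3. Just outside in width, the highest runs of 4 tiles were chr17:13550001-13554000 (mean 116), chr9:124422001-124426000 in Ppp2r3d (60.4) and chr7:6727001-6731000 over the imprinted neighbours Peg3 and Usp29 (44.9).

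Genes of the lists were covered unequally, beside 15.6% of all coding genes with a start in a domain. The part of gene length in these counts was not tested. Of 20 astrocyte identity genes 8 (40%) started in a domain: S100b, the Notch target Hes5, the glycolytic enzyme Aldoc, the proteoglycan Bcan, Agt, Atp1b2, Fgfr3 and Ndrg2. S100b, a calcium-binding protein, had a 12-kb domain with 5.45 and 7.34 uninjured and 5.75 and 6.34 at 1 d.p.i. Of 19 astrocyte and glial transcription factors 4 (21.1%) did: Nfix, Hes5, Nfib and Zbtb20. The start of Sox9 itself was not in a domain, nor were those of Gfap, Aqp4 and Slc1a3. Within Gfap, which encodes the astrocyte intermediate filament, a 6-kb domain apart from the start had 3.09 and 5.3 uninjured and 6.8 and 6.2 at 1 d.p.i.

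Oligodendrocyte genes had some of the widest gene domains. Of 14 lineage regulators 7 (50%) started in a domain, and of 13 autosomal myelin genes 7 (53.8%). Sox10, the SOXE factor of oligodendrocytes, had 36 kb (9.47 and 13.7 uninjured, 10.2 and 8.54 at 1 d.p.i.). Sox8 shared a 33-kb domain with Lmf1 (9.19 and 11.5, then 9.64 and 7.92), and Myrf, a regulator of myelin genes, had 26 kb (6.59 and 9.44, then 9.21 and 8.45). Mbp, which encodes myelin basic protein, had 48 kb with 8.61 and 13.9 uninjured and 9.92 and 9.02 at 1 d.p.i. In each of these 4 domains the uninjured and 1 d.p.i. ratios overlapped.

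Among regulators, 3 of 4 nuclear factor I genes, 4 of 18 SOX genes and 11 of 20 AP-1 and immediate early genes started in a domain. Nfic shared a 60-kb domain with 5 other coding genes. The AP-1 subunits Jund (35 kb, with Lsm4 and Iqcn) and Junb (19 kb, with Hook2) and the zinc-finger factor Egr1 (21 kb) had the widest of the immediate early domains. Junb had 8.17 and 13.3 uninjured and 13.8 and 11.8 at 1 d.p.i. Of the Notch and BMP effectors 6 of 18 started in a domain, and of the cartilage genes known as SOX9 targets 5 of 15, among them Col2a1 (8 kb; 4.01 and 5.04 uninjured, 5.53 and 5.68 at 1 d.p.i.). Ribosomal protein genes reached 12 of 24 and histone genes 3 of 20.

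Markers of other cells had shares from 0% to 27.8%. Neuronal genes had 5 of 18 (27.8%), among them Tubb3, Rbfox3 and Grin1. Ependymal genes had 1 of 14 (Foxj1, 28 kb), microglia and macrophage genes 1 of 16 (Cd68, which shared 24 kb with Sox15, Eif4a1 and Mpdu1), and endothelial and mural genes 0 of 14. Of 39 Hox genes 13 started in a domain, with Hoxb6, Hoxb7 and Hoxb8 in the same 25 kb, and of 40 neural patterning homeobox genes 1 did (Nkx6-2). Domains at reactive astrocyte genes were 4 of 19 (21.1%), and these are described with the changes.

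The median change from uninjured to 1 d.p.i. had opposite signs in the M and F libraries. With 1 library per sex and condition, sex and library cannot be told apart. The change was taken on the log2 scale of the ratio plus 0.5, which understates the change of low regions. In M the median domain rose by 0.27 and 4027 domains (74.1%) were higher at 1 d.p.i. In F the median domain fell by 0.34 and 1193 (22%) were higher. Over all 69986 runs the medians were 0.14 in M and -0.11 in F. The same direction in both sexes was found in 1954 domains (36%), against 46.3% of all runs: 870 were higher in both and 1084 lower in both. Both 1 d.p.i. libraries were above both uninjured ones in 683 domains (12.6%), against 16.5% of all runs, and below them in 817 (15%), against 15% of all runs.

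**Figure D4:**
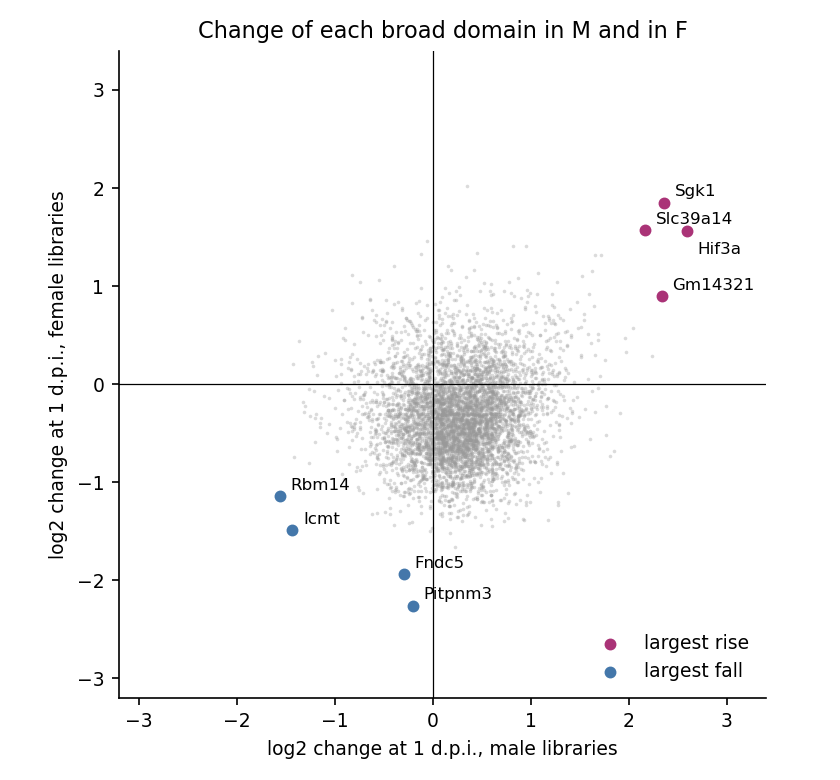
Change of each broad domain at 1 d.p.i. (log2 of the ratio plus 0.5, 1 d.p.i. minus uninjured) in the female libraries against the male libraries. Grey points are domains, which centre at a median of 0.27 in M and -0.34 in F, and coloured points are the 4 largest rises and 4 largest falls among domains that moved the same way in both sexes.

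limma, fitted over all 69986 runs, called 68 runs higher (0.0972%) and 14 lower (0.02%) at 1 d.p.i. at a Benjamini-Hochberg adjusted p under 0.05. Among the domains it called 1 higher and 0 lower. At an unadjusted limma p under 0.05, 28 of 5434 domains were higher and 3 lower. Of the 69986 runs, 1775 (2.54%) were higher and 1349 (1.93%) lower, which were larger shares than among the domains. The median domain changed by -0.05 (log2). The standard error of a domain drew on a trend of spread with height over all runs, of which 42117 were 1 tile wide. At Spata13, the domain of least spread, the SD of log2 ratios over libraries was 0.03 and the standard error 0.54. The number of calls among domains is thus not a measure of the spread at the domains alone.

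The domain called was at Hif3a, which encodes a subunit of the hypoxia-inducible factors. It spanned chr7:17056001-17063000 (7 kb) and covered the start of a Hif3a transcript. Its ratios were 3.52 (M) and 5.44 (F) uninjured and, at 1 d.p.i., 23.7 (M) and 17 (F), so the groups did not overlap. The change was 2.07 on the log2 scale (SE 0.49, limma adjusted p = 0.0261; 2.59 in M and 1.56 in F). Over 13 alternatives it stayed between 1.78 and 2.35, with adjusted p from 0.015 to 1, and it was called in 2 of them. Without uninjured M the limma adjusted p was 0.156, without 1 d.p.i. M 0.96 and without 1 d.p.i. F 0.801. With sex as a covariate, the replicate block, it was 0.515 and the domain was not called. The controls had 0 and 4.71 uninjured and 32.3 and 0 at 1 d.p.i., where a few fragments set the value.

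3 further domains with large rises in both sexes did not pass the threshold. Next to Sgk1, a kinase induced by serum and glucocorticoids, chr10:22000001-22006000 lay 5091 bp from the nearest Sgk1 start. It went from 2.16 and 2.4 to 13.1 and 9.93 in M and F (log2 change 2.1, SE 0.54, limma adjusted p = 0.064). At Slc39a14, a zinc and iron importer, chr14:70329001-70339000 went from 2.36 and 3.86 to 12.4 in each sex (1.87, SE 0.51, adjusted p = 0.13). At the noncoding gene Gm14321, 84086 bp from the Cebpb start, chr2:167773001-167779000 went from 1.57 and 4.06 to 9.98 and 8.04 (1.62, SE 0.55, adjusted p = 0.52). In all 3 the groups did not overlap. The domain near Sgk1 averaged a ratio of 3 in the 1 d.p.i. libraries only, and those at Slc39a14 and Gm14321 were under 3 in uninjured M. The mean of the 4 libraries thus admitted them through the group in which they were high, so a difference was partly built into their choice and the tests of them are not independent of it. With runs of at least 2 tiles in the fit, the domain near Sgk1 (adjusted p = 0.00322) and that at Slc39a14 (0.0429) were called and Hif3a was not (0.0596).

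**Figure D5:**
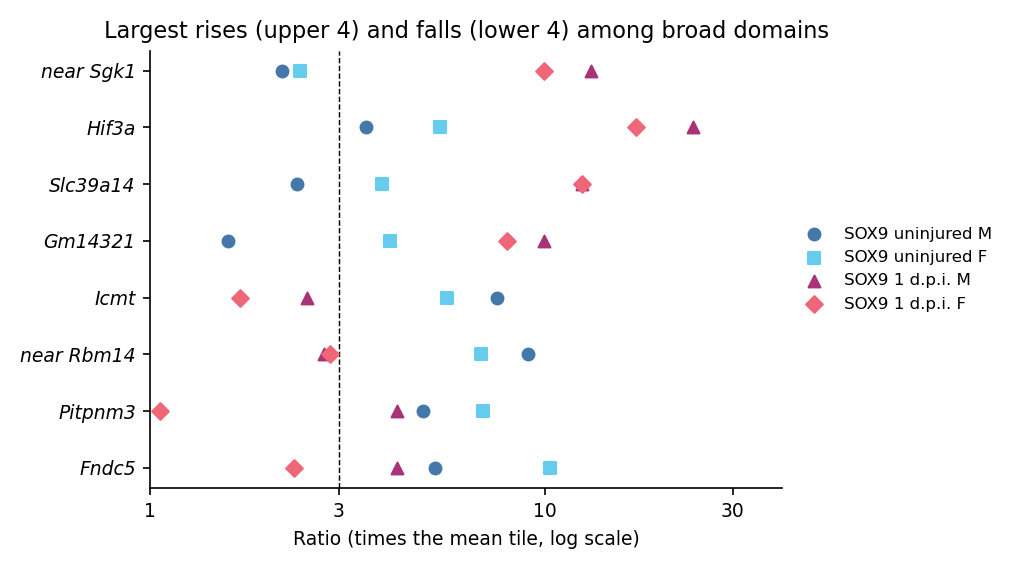
Ratio (times the library mean tile, log scale) of the 4 broad domains with the largest rises and the 4 with the largest falls in each SOX9 library, with the ratio of 3 dashed. The 1 d.p.i. symbols lie right of the uninjured ones in the upper 4 rows, from 8.04 to 23.7, and left of them in the lower 4.

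More than 2-fold changes in both sexes, on the same scale, were upward in 2.77% of all runs (1936) and downward in 2.25% (1573). Among the domains they were upward in 9 (0.166%) and downward in 2 (0.0368%). Beside Hif3a, Sgk1 and Slc39a14, the upward ones were a pair around Apod, which encodes a lipocalin of glia, and domains at Gm14319, Vmp1, Ntn5 and Flnc. The 10-kb domain at Apod went from 1.51 and 2.59 to 6.13 and 7.21 (log2 change 1.52, limma adjusted p = 0.922), and the 9-kb one from 3.26 and 5.1 to 11.1 and 11.9 (1.38, adjusted p = 0.688). The 10-kb domain was under 3 in both uninjured libraries and entered through the 1 d.p.i. ones. Vmp1, an autophagy protein, went from 3.19 and 3.47 to 10.1 and 7.99, and Flnc, an actin crosslinker, from 3.22 and 3.75 to 7.29 and 8.81.

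The largest falls were smaller. Across parts of Icmt and Rnf207, away from their coding starts, a 7-kb domain went from 7.57 and 5.65 to 2.49 and 1.69 (log2 change -1.46, SE 0.62, limma adjusted p = 0.966). Near Rbm14 a 5-kb domain, 60% multicopy by its sampled words, went from 9.06 and 6.91 to 2.75 and 2.86 (-1.35, SE 0.56, adjusted p = 0.922). Pitpnm3 went from 4.9 and 6.96 to 4.22 and 1.06, and Fndc5, the precursor of irisin, from 5.27 and 10.3 to 4.22 and 2.32, so that the F libraries carried most of both falls. None of the 4 passed the threshold. The domains at Icmt and near Rbm14 were under 3 in both 1 d.p.i. libraries and entered through the uninjured ones.

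The 4 domains at reactive astrocyte genes were all higher at 1 d.p.i. in both sexes, with none called and a median log2 change of 0.93, against -0.05 over all domains, of which 870 of 5434 were higher in both sexes. The list was chosen with earlier results of these data known and holds Slc39a14, one of the largest rises, so its direction is no independent evidence. Beside Slc39a14, Socs3, the feedback inhibitor of cytokine signalling, went from 4.35 and 5.7 to 9.6 and 11.2. Nes, which encodes nestin, went from 2.29 and 4.74 to 6.71 and 6.37. The small heat shock gene Hspb1 went from 4.31 and 3.33 to 5 and 5.31. Like Slc39a14, Nes was under a ratio of 3 in uninjured M, so a rise was partly built into the choice of both domains. The 11 domains at AP-1 and immediate early genes had a median of 0.15, with 7 higher by the mean and 2 in both sexes. The domains at astrocyte identity genes had a median of -0.07 (8 domains), at oligodendrocyte regulators -0.21 (7), at myelin genes -0.08 (7) and at neuronal genes -0.33 (5), with 0 called in each.

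Domains differed in how closely the 4 libraries agreed. The SD of log2 ratios over libraries had a median of 0.31. At Spata13 (5.39, 5.29, 5.22 and 5.46) and inside Rxra (5.31, 5.64, 5.6 and 5.52), in the order uninjured M, uninjured F, 1 d.p.i. M and 1 d.p.i. F, the libraries were nearly equal, as they were inside Pxn and Pgbd5. The widest spreads, beside Hif3a, Sgk1 and Slc39a14, included Epb41l3, where uninjured M had 0.682 and the others 4.1, 5.1 and 5.13. Its mean ratio reached 3 in 3 of the 4 libraries.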

How the data were processed

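SOX9 CUT&Tag signal was measured in 4 SOX9 and 4 control libraries of mouse spinal cord nuclei. The deposited file holds unscaled whole-number coverage (signal) of each library along mm10. Per the labels and the methods, the authors mapped read pairs with Bowtie2 2.5.4 and removed duplicates with Picard 3.4.0, and SEACR 1.3 is also named in the submitters' processing notes. The step that wrote the coverage is not given in the sources used here. By default Bowtie2 reports 1 place for a read that fits several, so signal in repeats may come from any of the copies.

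Coverage was summed in 1-kb tiles and divided by the library's mean tile on chromosomes 1 to 19. This ratio takes no account of copy number or of open chromatin. Fragments were counted from upward steps in the coverage, which misses a fragment starting where another ends. Groups came from the labels. limma 3.58.1 (R 4.3.3) with a mean-variance trend was fitted to log2(ratio + 0.5) of all 69986 runs in the 4 SOX9 libraries without a covariate, and tested on simulated data. Gene starts, bodies, exons and classes came from GENCODE vM21, and sequences, soft-masking and the genes named as in RefSeq from the RefSeq GRCm38 reference. The annotations differ in repeats. The domains and gene lists were chosen with earlier results of these data known. Domains were named by rule: the 8 widest, the 6 highest and the 3 with the lowest minimum tile. Also named were the 4 largest rises and falls that agree in sex, the 4 most and least spread, and up to 4 per gene list. The 3 narrower runs named were the runs of 4 tiles with the highest mean ratio. One of the 8 widest is not reported here. The domains over 2-fold in both sexes were named after their values were seen. Alternatives were another ratio, width, grid, scaling, pseudocount, thinning, covariate and each library left out.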

Additional observations from a re-analysis of the deposited data

Results flagged for a closer look

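The change of the domains at 1 d.p.i. had opposite signs in the sexes. For the males the median domain moved by 0.27 (log2) and for the females by -0.34. Domains gained 3.39 percentage points of the coverage among males (M), and the change among females (F) was -3.89. In domains chosen without the library measured, these changes were 2.43 and -1.77. With 1 library per sex and condition this contrast has no test. The library of the uninjured female had 7235739 fragments and the other SOX9 libraries 1894639 to 2532045. In the same domains with all 4 libraries thinned to the shallowest the changes were 3.4 and -3.86, but random thinning leaves a share in domains already chosen about where it was.

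The rule also found domains outside chromosomes 1 to 19, in signal that entered no comparison. Chromosome X had 16 domains, with a mean ratio of 10.8 over the SOX9 libraries (9.06 to 13.9) and 4.8 to 8.93 in the controls. Chromosome Y had 3, with 16.6 (13.8 to 20) and 6.21 to 15.2. The Y domains were as high in F libraries (20 and 17.9) as in M libraries (14.8 and 13.8), while the mean ratio over the whole of Y was 0.31 and 0.173 in the M and 0.0269 and 0.0392 in the F SOX9 libraries. The mitochondrial genome was 1 domain with 136 to 363 in the SOX9 libraries and 197 to 818 in the controls.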

How the results depend on the processing

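The number of domains depended on the rule. It was 11713 at a ratio of 2, 2807 at a ratio of 4, 3072 with 500-bp tiles in runs of 10 and 995 when every library had to reach 3 in every tile. It was 5005 to 5758 with 1 library left out and within 1.5 times 5434 in every other alternative, including 5362 without repeat-rich and gap-near domains. Domains called changed at 1 d.p.i. numbered 0 with trimmed-mean scaling, with the median of all runs set to 0, with a pseudocount of 2, with all 8 libraries, without a trend and with thinned libraries. There were 2 with runs of at least 2 tiles, 10 of the tiles with single tiles and 0 to 1 with 1 library left out, the 1 being without uninjured F. With sex as a covariate, the replicate block of this design, 0 domains were called. M and F do not pair animals, so a call lost there is not a weaker effect. The median change ran from -0.26 to 0.16 over alternatives. Of 104 refits of the 8 named rises and falls, none changed direction, 11 lost the call of Hif3a and 2 gained a call. When each library was measured in domains chosen by the other 3, the difference in coverage share was 0.33 percentage points (14.8% and 15.2%, exact permutation p = 1, n = 2) and not -0.248, so its direction turned. Composition moved with the bases used. On unmasked bases GC was 53.1%, CpG 21.2, SOX core 1.23, AP-1 0.292 and NFI letters 0.631 per kb, and in the highest tile of each domain 55.4%, 32.7, 1.18, 0.285 and 0.544.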

Other observations

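Domains at genes that glucocorticoids induce were mostly higher at 1 d.p.i. The list of 12 genes was chosen after the values of Hif3a and Sgk1 had been seen, so its counts are a description with no test. Of the 12, 10 had a start site in a domain, against 15.6% of coding genes. All 10 domains were higher at 1 d.p.i. by the group means, 7 in both sexes, with a median log2 change of 0.78 against -0.05 over all domains and 1 called (Hif3a). Over all domains 870 of 5434 were higher in both sexes. Fkbp5, a cochaperone of the glucocorticoid receptor, went from 3.81 and 5.39 to 12.5 and 10.6 in M and F (log2 change 1.25, SE 0.50, limma adjusted p = 0.871). The domain at the Sgk1 start, apart from the one nearby, went from 6.29 and 8.65 to 15.5 and 12.3. Nfkbia, the inhibitor of NF-kB, went from 4.58 and 6.64 to 11.1 and 10.9, and Cdkn1a, a cell cycle inhibitor, from 5.34 and 7.37 to 14.6 and 9.89. The circadian gene Per1 (10.1 and 18, then 17.9 and 13.3), Ddit4 and Dusp1 were higher in M and lower in F. In 2 of these genes, Hif3a and Fkbp5, the change was more than 1 on the log2 scale.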
